A study of Mus musculus with 6 samples.

Results

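The 10 genes described here encode corticotropin-releasing hormone (CRH) and the parts of the stress axis that answer to it or feed back on it. They are Crh, its receptors Crhr1 and Crhr2, its binding protein Crhbp, the corticosteroid receptors Nr3c1 and Nr3c2, the steroid-activating enzyme Hsd11b1, and the receptor targets Fkbp5, Sgk1 and Tsc22d3. They were picked by name from a deposited table of 35148 genes, where each name matched 1 row, and all 10 were among the 20865 genes with enough counts to be tested. The RNA came from the paraventricular nucleus of the hypothalamus (PVH) of mice homozygous for floxed Ruvbl2 (Ruvbl2fl/fl), a genotype that both groups share. In 3 samples the PVH had received AAV2-Cre-GFP, a viral vector that carries Cre recombinase with a green fluorescent marker, and in 3 it had received AAV2-GFP, which lacks Cre. All samples were taken 8 weeks after infection. The series addresses how RUVBL2, an ATPase of chromatin remodelling and chaperone complexes, acts on synaptic plasticity. The labels give no age or sex, no promoter for Cre, and do not say whether each library is an animal of its own; the spread behind each p-value is that between these samples and may be technical. Because whole tissue was sequenced, infected and uninfected cells of all types are mixed, and fewer cells of a type cannot be told apart from less RNA per cell.

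CRH is a peptide released by parvocellular neurons of the PVH into the portal blood of the pituitary, where it acts on CRHR1 and drives secretion of corticotropin and, from the adrenal cortex, of corticosterone. Corticosterone returns to the brain and binds the glucocorticoid receptor (encoded by Nr3c1) and the mineralocorticoid receptor (encoded by Nr3c2), which act as transcription factors. In this feedback loop glucocorticoids lower Crh transcription in the PVH and raise that of targets such as Fkbp5, Sgk1 and Tsc22d3.

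The groups overlapped for Ruvbl2, the gene targeted by Cre. Its level stood at 9.38 ± 0.240 FPKM in the libraries labelled AAV2-Cre-GFP and at 8.66 ± 1.27 FPKM in those labelled AAV2-GFP (SD, n = 3 each; FPKM are fragments scaled by gene length and library total). Its log2 difference was 0.077 with a 95% interval of -0.18 to 0.33 (edgeR adjusted p = 0.773). The value counts the whole gene, so deleted and retained exons are not separated. The libraries are therefore called Cre-labelled and GFP-labelled below, and every direction compares libraries so labelled.

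Library totals ran from 41890769 to 54702785 counts in the Cre-labelled and from 42003794 to 49414012 counts in the GFP-labelled group, and the 10 genes had between 114 and 5507 counts in each library. A list of 15 PVH genes summed to between 1243 and 1659 CPM (counts scaled to a common library total) in the Cre-labelled libraries. In the GFP-labelled ones it summed to between 1447 and 1970 CPM. None of the 15 was at 0 in all 6 libraries, but a sum does not show each marker in each library. Some libraries stood apart. Kidney markers, 12 genes, summed to 62.1 CPM in library 1, 730 CPM in library 2 and 778 CPM in library 3 of the Cre-labelled group, and to 75.6 to 85.7 CPM in the GFP-labelled group. Testis markers reached 555 CPM in GFP-labelled library 1, against at most 6.12 CPM elsewhere, and muscle markers reached 216 CPM in Cre-labelled library 3, against at most 17.5 CPM elsewhere. A list for RNA quality, made of mitochondrial ribosomal RNAs, other structural RNA models and Lars2, summed to 23063, 17955 and 11032 CPM in Cre-labelled libraries 1 to 3 and to between 5252 and 5828 CPM in the GFP-labelled ones. The 14 pan-neuronal genes were lower in the Cre-labelled libraries, at 5315 to 5698 CPM against 6187 to 6320 CPM.

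**Figure D1:**
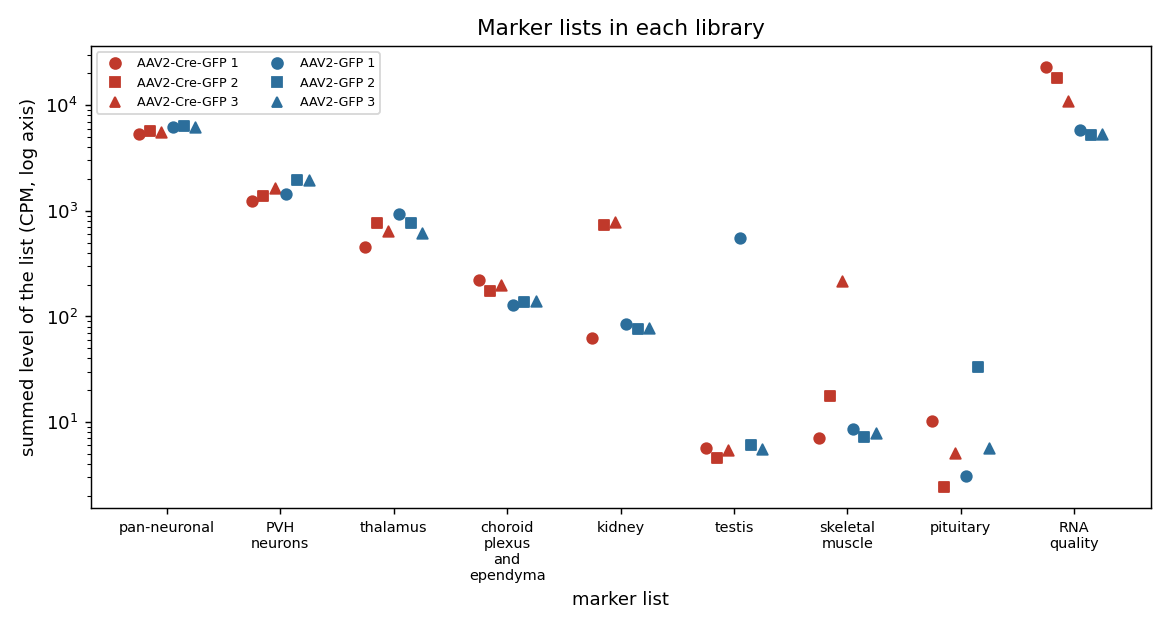
Summed level of marker lists in each library in CPM on a log axis, with AAV2-Cre-GFP libraries in red and AAV2-GFP libraries in blue and 1 symbol per replicate number. Kidney markers stand out in Cre-labelled libraries 2 and 3 and testis markers in GFP-labelled library 1, and the pan-neuronal sums of the Cre-labelled libraries lie below those of the GFP-labelled ones.

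Start-site sequences were taken from RefSeq (GRCm38.p6), which matched 8 of the 10 genes, Crh and Nr3c1 being the others, with 15 start sites in all. The 250 bases before each start site were searched on both strands for the palindromic glucocorticoid response element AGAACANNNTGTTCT, for the receptor hexamer AGAACA that the palindrome contains, and for the cyclic AMP response element TGACGTCA. Of the 15 windows, 1 held the palindrome and 4 held the hexamer. The same search over all 32851 RefSeq windows found the palindrome in 3 (0.00913%) and the hexamer in 16.1%. None of the 15 windows held TGACGTCA, which 1.55% of all windows hold. The windows below are shown because Tsc22d3 is the target that differed most clearly between the groups and Sgk1 is the gene with the palindrome. Capitals mark the hexamer on either strand and, in Sgk1, the whole palindrome, which spans positions -189 to -175 from the start site. In Tsc22d3 the hexamer begins at position -185.
Sgk1, chr10:21993640-21993889, plus strand: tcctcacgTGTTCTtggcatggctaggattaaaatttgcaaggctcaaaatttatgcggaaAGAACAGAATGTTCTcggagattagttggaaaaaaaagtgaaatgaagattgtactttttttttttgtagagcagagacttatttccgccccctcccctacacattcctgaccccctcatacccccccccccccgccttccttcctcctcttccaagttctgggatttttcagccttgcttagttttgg
Tsc22d3, chrX:140600660-140600772, minus strand: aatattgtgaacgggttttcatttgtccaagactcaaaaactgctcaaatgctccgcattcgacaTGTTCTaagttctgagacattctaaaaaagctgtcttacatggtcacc
The Sgk1 window belongs to 1 of 6 start sites of that gene and the Tsc22d3 stretch to 1 of 3, cut to the bases outside annotated exons. A match of letters is a description and does not show that a receptor binds there, and the gene-level counts do not tell which start site was used.

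With p-values adjusted over all tested genes, edgeR's quasi-likelihood test called 0 of the 10 genes at 0.05 and 0.00959% of all genes, all of these on the lower side (0% were higher). Before adjustment 2 of the 10 had p under 0.05, Tsc22d3 on the higher and Crh on the lower side, against 17.2% of all tested genes (8.11% higher and 9.11% lower), so their share of 20% is near the background. DESeq2 called these same 2 genes, against 9.06% of the genes to which it gave an adjusted p. The groups did not overlap in FPKM for 3 of the 10, with Tsc22d3 and Fkbp5 higher and Crh lower in the Cre-labelled libraries. Over all tested genes the groups did not overlap for 22.9%. On the normalized log2 CPM scale the groups overlapped for Fkbp5. Differences were above 0 for 6 of the 10 and below 0 for 4, with a median of 0.091, against 49%, 51% and -0.0058 over all tested genes.

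**Figure D2:**
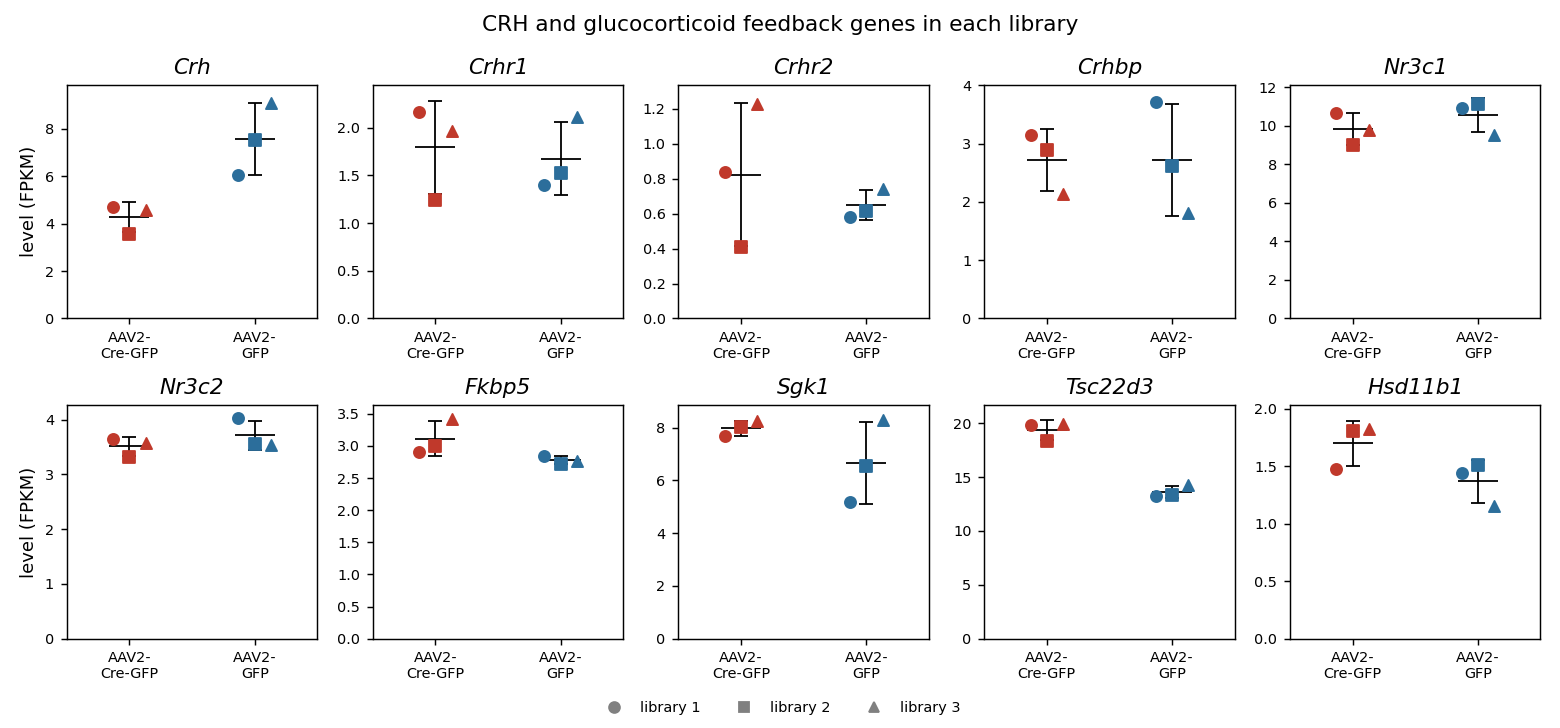
Level of each of the 10 genes in FPKM, with AAV2-Cre-GFP libraries at the left in red and AAV2-GFP libraries at the right in blue, 1 symbol per replicate number, and the mean and SD of each group as black bars. The groups are apart for Crh, Tsc22d3 and, narrowly, Fkbp5, and overlap for the other 7 genes.

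Crh (ENSMUSG00000049796; chromosome 3, 19693401 to 19695396, minus strand), the hormone of the parvocellular neurons, was lower in each Cre-labelled library than in any GFP-labelled one. Its level was 4.69, 3.55 and 4.56 FPKM in Cre-labelled libraries 1 to 3, against 6.07, 7.53 and 9.10 FPKM in GFP-labelled libraries 1 to 3. Behind these values lay 246 to 383 counts in the Cre-labelled and 406 to 685 counts in the GFP-labelled libraries. Even the highest Cre-labelled value lay below the lowest GFP-labelled one. The log2 difference was -0.87 ± 0.19 (SE), a ratio of 0.549 with a 95% interval of 0.402 to 0.750, and it missed the threshold in edgeR (adjusted p = 0.104). DESeq2 gave nearly the same difference and called the gene (DESeq2 adjusted p = 0.00205). Leaving out GFP-labelled library 1 gave the widest difference, -1.004, and leaving out GFP-labelled library 3 the narrowest, -0.71, and over all such fits the edgeR adjusted p ran from 0.0961 to 0.301.

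Other genes of the nucleus were mostly below 0 too, with a wider spread. Of the 15 PVH markers 13 were below 0, with a median of -0.36, and edgeR called 0 of them. Before adjustment 4 were lower with p under 0.05, against 9.11% of all tested genes. DESeq2 called 1 as lower, against 5.4% of the genes it judged. None of the 15 separated the groups, where 22.9% of all tested genes did. Oxt and Avp, the magnocellular hormones, differed by -1.14 and -0.83 with overlapping groups (edgeR adjusted p = 0.454 and 0.457). Pan-neuronal markers were below 0 in 14 of 14 cases with a median of -0.18, and edgeR called 0. Of these 14, 9 were lower with p under 0.05 before adjustment, against 9.11% of all tested genes. The groups were apart on the lower side for 7, against 8.8%, and DESeq2 called 5 as lower, against 5.4%. The part of fewer neurons, of the place of dissection or of RNA quality in the Crh difference was not tested. In Cre-labelled library 1 Crh was 0.73 below the 3 GFP-labelled libraries on the log2 scale. That library has kidney markers at the level of the GFP-labelled ones, but the lowest PVH (1243 CPM) and pan-neuronal (5315 CPM) sums of all libraries. Its RNA quality sum was the highest, at 23063 CPM. The part of these in its Crh value was not tested.

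Set against 14279 other tested genes that averaged 1 FPKM or more, the profile nearest to Crh over the 6 libraries was that of Fibcd1. This gene encodes an acetyl-group-binding membrane receptor. Likeness is the root-mean-square difference of the log2 CPM profiles after each is centred, and it was 0.0965 for Fibcd1. Fibcd1 stood at 1.52, 1.01 and 1.195 FPKM in Cre-labelled libraries 1 to 3, against 1.69, 2.30 and 2.62 FPKM in GFP-labelled libraries 1 to 3. The next were Clcn5, a chloride-proton exchanger of endosomes, at 0.172, the predicted gene Gm20163 at 0.176, the potassium channel gene Kcnb2 at 0.184 and the predicted gene Gm10010 at 0.189. Among the other 9 genes described here the nearest to Crh was Nr3c1, at 0.427. A flat profile would score 0.473 against Crh, so 0.427 is not a close likeness.

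For the receptors of CRH and its binding protein the groups overlapped. Crhr1 (ENSMUSG00000018634; chromosome 11, 104132855 to 104175523, plus strand), the main receptor of CRH and the one on pituitary corticotrophs, stood at 2.17, 1.24 and 1.97 FPKM in Cre-labelled libraries 1 to 3, against 1.40, 1.52 and 2.11 FPKM in GFP-labelled libraries 1 to 3. The lowest value and the highest both came from Cre-labelled libraries, so the groups overlap throughout. Its difference was 0.056 on the log2 scale, with a 95% interval of -0.56 to 0.68 (edgeR adjusted p = 0.942). Its sign changed when 1 library was left out, with a range of -0.079 to 0.27. Pituitary markers, Gh and Prl among them, were at most 10.2 CPM in sum in 5 libraries and 32.9 CPM in GFP-labelled library 2, where Crhr1 had the middle value of its group.

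Crhr2 (ENSMUSG00000003476; chromosome 6, 55090049 to 55133016, minus strand), which prefers the urocortins over CRH, was the lowest of the 10 genes. It stood at 0.837, 0.409 and 1.22 FPKM in Cre-labelled libraries 1 to 3, against 0.579, 0.618 and 0.743 FPKM in GFP-labelled libraries 1 to 3. Cre-labelled libraries 2 and 3 held its extremes, and the 3 GFP-labelled values lay between them. On the log2 scale the difference was 0.31 with an interval of -0.52 to 1.15 (edgeR adjusted p = 0.713), and it turned to -0.073 without Cre-labelled library 3. Ucn3, which encodes urocortin 3, a ligand of CRHR2, stood at 10.7, 9.91 and 7.65 FPKM in Cre-labelled libraries 1 to 3, against 6.10, 9.28 and 10.5 FPKM in GFP-labelled libraries 1 to 3 (edgeR adjusted p = 0.879). The ratio of Crhr1 to Crhr2 was 2.59, 3.04 and 1.61 in the Cre-labelled libraries, against 2.41, 2.46 and 2.84 in the GFP-labelled ones, so the receptor balance overlapped as well.

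Crhbp (ENSMUSG00000021680; chromosome 13, 95431371 to 95444924, minus strand), a secreted protein that binds CRH and limits its access to receptors, had the same mean in both groups, 2.72 ± 0.528 FPKM in Cre-labelled and 2.72 ± 0.960 FPKM in GFP-labelled libraries (SD, n = 3 each). Single values were 3.15, 2.89 and 2.13 FPKM in Cre-labelled libraries 1 to 3, against 3.72, 2.62 and 1.81 FPKM in GFP-labelled libraries 1 to 3. Crhbp differed by -0.035 on the log2 scale with an interval of -0.70 to 0.63 (edgeR adjusted p = 0.966), and its sign changed without Cre-labelled library 3 (0.12) or GFP-labelled library 1 (0.25). The interval is wide enough to hold a difference of more than 1.5-fold in either direction. Per library, Crh was 1.49, 1.23 and 2.14 times Crhbp in FPKM in the Cre-labelled libraries and 1.63, 2.87 and 5.03 times in the GFP-labelled ones, with overlap between 1.63 and 2.14.

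Both corticosteroid receptors had small differences whose intervals include 0. Nr3c1 (ENSMUSG00000024431; chromosome 18, 39410545 to 39519421, minus strand) encodes the glucocorticoid receptor, which is occupied mainly when corticosterone is high. It stood at 10.7, 9.01 and 9.77 FPKM in Cre-labelled libraries 1 to 3, against 10.9, 11.2 and 9.55 FPKM in GFP-labelled libraries 1 to 3. Cre-labelled libraries 1 and 3 lay within the GFP-labelled range. This gave a log2 difference of -0.14 ± 0.079 (SE; edgeR adjusted p = 0.407), and the 95% interval corresponds to ratios between 0.799 and 1.03. Without Cre-labelled library 2 it was -0.079.

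Nr3c2 (ENSMUSG00000031618; chromosome 8, 76899442 to 77245012, plus strand) encodes the mineralocorticoid receptor, which has the higher affinity for corticosterone. Its level was 3.66, 3.31 and 3.57 FPKM in Cre-labelled libraries 1 to 3, against 4.03, 3.56 and 3.54 FPKM in GFP-labelled libraries 1 to 3, with overlapping groups. Its log2 difference was -0.12 ± 0.084 (SE; edgeR adjusted p = 0.520), with ratios between 0.805 and 1.06 in the interval. Leaving out Cre-labelled library 2 brought it to -0.073, and leaving out GFP-labelled library 1 to -0.057. The 2 receptors had the most alike profiles of any pair among the 10 genes, with a root-mean-square difference of 0.0784. Both profiles were nearly flat, with a root-mean-square of 0.113 for Nr3c1 and 0.0886 for Nr3c2 about their own means. The ratio of Nr3c1 to Nr3c2 was 2.92, 2.72 and 2.74 in the Cre-labelled libraries, against 2.72, 3.13 and 2.69 in the GFP-labelled ones.

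Hsd11b1 (ENSMUSG00000016194; chromosome 1, 193221634 to 193243561, minus strand) encodes the enzyme that turns inactive 11-dehydrocorticosterone back into corticosterone inside cells. It stood at 1.47, 1.81 and 1.82 FPKM in Cre-labelled libraries 1 to 3, against 1.44, 1.51 and 1.16 FPKM in GFP-labelled libraries 1 to 3. Cre-labelled libraries 2 and 3 were above every GFP-labelled one, while Cre-labelled library 1, the one with kidney markers at the level of the GFP-labelled libraries, was below GFP-labelled library 2. The log2 difference was 0.28 with an interval of -0.13 to 0.69 (edgeR adjusted p = 0.464), and 0.074 with Cre-labelled library 1 as the sole Cre-labelled library. The whole gene lies inside the span of Lamb3 on the other strand, and since the use of strand in counting is not given, reads of Lamb3 (163 to 271 counts in the Cre-labelled and 180 to 263 in the GFP-labelled libraries) cannot be set apart with certainty.

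Of the 3 receptor targets, Tsc22d3 had the clearest difference. Tsc22d3 (ENSMUSG00000031431; chromosome X, 140539528 to 140600659, minus strand) encodes GILZ, the glucocorticoid-induced leucine zipper that restrains inflammatory transcription factors. It was the most abundant of the 10 genes in both groups, at 19.9, 18.3 and 19.96 FPKM in Cre-labelled libraries 1 to 3, against 13.3, 13.3 and 14.3 FPKM in GFP-labelled libraries 1 to 3. Each Cre-labelled library was above every GFP-labelled one by a wide margin for the spread within either group. The log2 difference was 0.47 ± 0.060 (SE), a ratio of 1.39 with a 95% interval of 1.26 to 1.53.

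This was the smallest p of the 10 genes, and it missed the threshold narrowly (edgeR adjusted p = 0.0694, unadjusted p = 5.6e-05). DESeq2 called it (DESeq2 adjusted p = 3.37e-08), as did edgeR's robust fit (adjusted p = 0.0416). The difference itself was stable, between 0.45 and 0.51 whichever library was left out, while the edgeR adjusted p ran from 0.0294 (without Cre-labelled library 1, which passes) to 0.301 (without GFP-labelled library 2). It was as large in Cre-labelled library 1, where kidney, testis and muscle markers were low, at 0.50 against the 3 GFP-labelled libraries (edgeR adjusted p = 0.405 with 1 library against 3), and it was 0.47 with GFP-labelled library 1 left out as well. That same Cre-labelled library had the highest sums of the RNA quality list, 23063 CPM against 5252 to 5828 CPM in the GFP-labelled libraries, and of the choroid plexus and ependyma markers, 220 CPM against 128 to 140 CPM. Their part in the Tsc22d3 difference was not tested.

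Fkbp5 (ENSMUSG00000024222; chromosome 17, 28399094 to 28517527, minus strand) encodes FKBP51, a co-chaperone that lowers the hormone affinity of the glucocorticoid receptor and is itself induced by it. It stood at 2.91, 3.00 and 3.43 FPKM in Cre-labelled libraries 1 to 3, against 2.84, 2.72 and 2.77 FPKM in GFP-labelled libraries 1 to 3. The groups did not overlap in FPKM, but the nearest libraries, replicate 1 of each group, were close. On the normalized log2 CPM scale of the profiles the groups overlapped. There Cre-labelled library 1 stood at -0.057 and GFP-labelled library 1 at -0.029 about the gene's mean. This left a log2 difference of 0.13 ± 0.086 (SE; edgeR adjusted p = 0.499), and its interval reaches a ratio of 1.25 at most. With Cre-labelled library 1 as the sole Cre-labelled library it was 0.025, so the difference rests on Cre-labelled libraries 2 and 3.

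Sgk1 (ENSMUSG00000019970; chromosome 10, 21882184 to 21999893, plus strand) encodes a kinase that regulates ion channels and transporters and responds to both corticosteroid receptors. Its Cre-labelled values were close together, at 7.69, 8.01 and 8.25 FPKM, against 5.18, 6.55 and 8.28 FPKM in GFP-labelled libraries 1 to 3. GFP-labelled library 3 was above all Cre-labelled libraries, so the groups overlap. Sgk1 differed by 0.22 on the log2 scale, with an interval of -0.14 to 0.58 (edgeR adjusted p = 0.513). That difference was 0.066 when GFP-labelled library 1 was left out and 0.41 when GFP-labelled library 3 was. The palindrome lies before 1 of its start sites, and edgeR called 0 of the 10 genes, Sgk1 included.

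**Figure D3:**
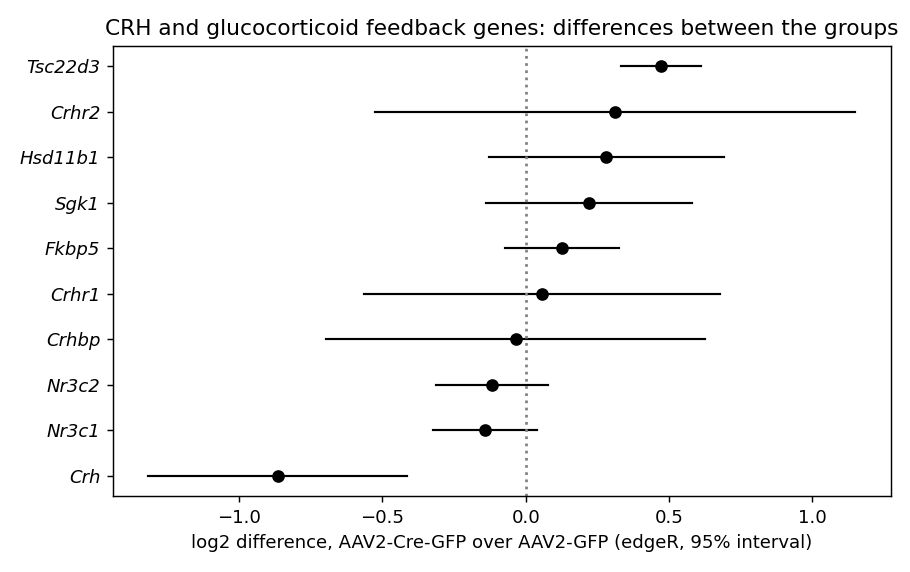
Log2 difference of each gene, AAV2-Cre-GFP over AAV2-GFP, from edgeR's quasi-likelihood fit, with points for the estimate and lines for the 95% interval before adjustment. The intervals of Tsc22d3 (0.33 to 0.61) and Crh (-1.32 to -0.41) stay clear of 0, and those of the other 8 genes include it.

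Ordered by FPKM, which allows for gene length, the Cre-labelled libraries had Tsc22d3 at 19.4 FPKM, Nr3c1 at 9.82, Sgk1 at 7.98, Crh at 4.27, Nr3c2 at 3.51, Fkbp5 at 3.11, Crhbp at 2.72, Crhr1 at 1.79, Hsd11b1 at 1.70 and Crhr2 at 0.824 FPKM on average. In this order the neighbours from Crh down to Hsd11b1 overlapped pairwise, while the others did not. In the GFP-labelled libraries Crh, at 7.56 FPKM, came before Sgk1, at 6.67 FPKM, and their values overlapped. The remaining genes kept the same order, from 13.6 FPKM for Tsc22d3 to 0.646 FPKM for Crhr2.

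To set the 3 targets among others of the same kind, a list of 26 further genes known to be induced by glucocorticoids was read from the same fit. Differences lay above 0 for 23 of the 26, with a median of 0.37, against 49% and -0.0058 over all tested genes. edgeR called 0 of them, with 10 higher and 0 lower at an unadjusted p under 0.05, against 8.11% and 9.11% of all tested genes. The Cre-labelled libraries were all above the GFP-labelled ones for 12 of the 26 and below for 0, where 14.1% and 8.8% of all tested genes did so. DESeq2 called 8 as higher and 0 as lower, against 3.66% and 5.4% over the genes it judged. The 3 genes below 0 were Klf9, Ddit4 and Arl4d, and Per1, a clock gene with a well-known glucocorticoid response, was near 0 at 0.074.

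The smallest p belonged to Cdkn1a, which encodes the cell-cycle inhibitor p21. It stood at 3.31, 3.52 and 2.74 FPKM in Cre-labelled libraries 1 to 3, against 1.64, 1.64 and 1.66 FPKM in GFP-labelled libraries 1 to 3 (log2 difference 0.91 ± 0.14 SE; edgeR adjusted p = 0.0705). The gene is also a target of p53, so its place in the list does not single out one regulator. Hif3a, a hypoxia-inducible factor subunit, stood at 2.04, 2.10 and 2.09 FPKM against 1.47, 1.35 and 1.35 FPKM (log2 difference 0.54 ± 0.11 SE; edgeR adjusted p = 0.0821). Txnip, a thioredoxin-binding protein that responds to glucose and glucocorticoids, stood at 15.5, 17.9 and 21.8 FPKM in the Cre-labelled libraries, against 11.2, 11.1 and 12.9 FPKM in the GFP-labelled ones (log2 difference 0.61 ± 0.13 SE; edgeR adjusted p = 0.0984).

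The count depended on the libraries that stood apart. When Cre-labelled library 1 was the sole Cre-labelled library, 18 of the 26 genes were above 0 with a median of 0.24, and with GFP-labelled library 1 left out as well 17 of 26 were, with a median of 0.16. Without Cre-labelled library 3 the median was 0.22. Without Cre-labelled library 1 edgeR called Errfi1 and Txnip as higher (adjusted p = 0.0467 and 0.0336). That fit called 245 of all 21805 tested genes as higher and kept only the Cre-labelled libraries with high kidney markers. Markers of some other cell types leaned higher in the Cre-labelled libraries as well, and those of others did not. Choroid plexus and ependyma markers were above 0 for 7 of 9 tested genes with a median of 0.53. Their sums of 174 to 220 CPM in the Cre-labelled libraries lay above those of 128 to 140 CPM in the GFP-labelled ones. edgeR called 0 of these 9, and 7 were higher with p under 0.05 before adjustment, against 8.11% of all tested genes. The groups were apart on the higher side for 4, against 14.1%. DESeq2 called 5 as higher, against 3.66% of the genes it judged. Markers of mural cells and meninges were above 0 for 10 of 11 genes with a median of 0.31. Those of astrocytes and of endothelium were above 0 for 8 of 10 each, with medians of 0.079 and 0.066. Sums of the mural, astrocyte and endothelial lists overlapped between the groups. Oligodendrocyte and microglia markers were above 0 for 5 of 10 each, with medians of 0.0058 and 0.042. Thalamus markers were above 0 for 1 of 10, with a median of -0.29. The part of cell composition, of the kidney RNA in Cre-labelled libraries 2 and 3, and of RNA quality was not tested.

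**Figure D4:**
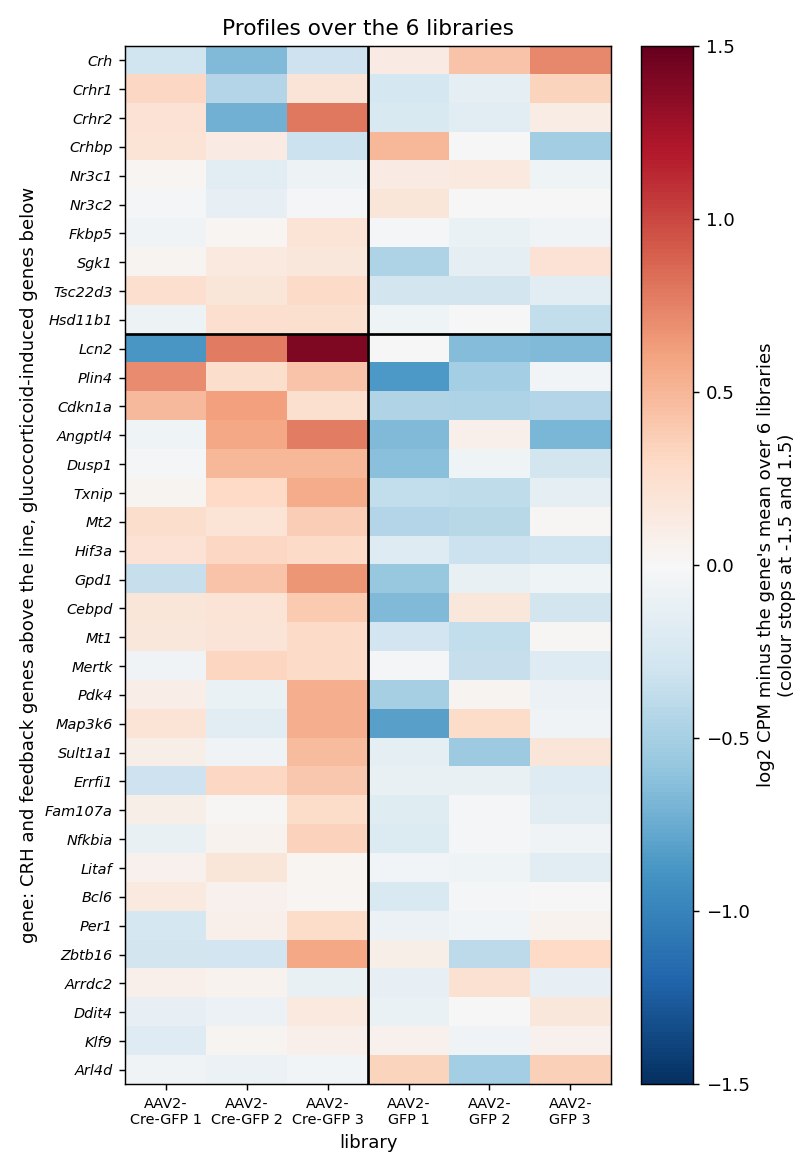
Profiles of the 10 genes (above the line) and of 26 glucocorticoid-induced genes (below it, ordered by difference) over the 6 libraries, as log2 CPM minus each gene's mean, with AAV2-Cre-GFP libraries at the left. The lower block is red mostly in Cre-labelled library 3, which is the highest library for 17 of the 26 genes, and mixed in Cre-labelled library 1. The same count was not made over all tested genes.

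Immediate early genes, which PVH neurons switch on within minutes of a stressor, were above 0 in 12 of 12 cases with a median of 0.66, and the groups were apart for 7 of them, against 14.1% of all tested genes in this direction. edgeR called 0, and 7 were higher with p under 0.05 before adjustment, against 8.11% of all tested genes. Junb stood at 13.5, 18.8 and 22.9 FPKM in Cre-labelled libraries 1 to 3, against 6.08, 8.68 and 9.44 FPKM in GFP-labelled libraries 1 to 3 (log2 difference 1.16 ± 0.23 SE; edgeR adjusted p = 0.085). Npas4, a neuronal activity-dependent transcription factor, stood at 4.34, 3.73 and 3.51 FPKM against 2.59, 2.91 and 2.83 FPKM (edgeR adjusted p = 0.136), and Btg2, an antiproliferative factor, at 6.58, 11.2 and 14.6 FPKM against 4.29, 5.98 and 5.66 FPKM (edgeR adjusted p = 0.145). In a fit with Cre-labelled library 1 as the sole Cre-labelled one, 9 of the 12 were above 0 (median 0.33), and with GFP-labelled library 1 left out as well 8 of 12 (median 0.11). DESeq2 called 3 of the 12, against 3.66% of the genes it judged. Without Cre-labelled library 1 edgeR called 3, Junb, Btg2 and Egr1, in a fit that called 245 of all 21805 tested genes as higher.

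**Figure D5:**
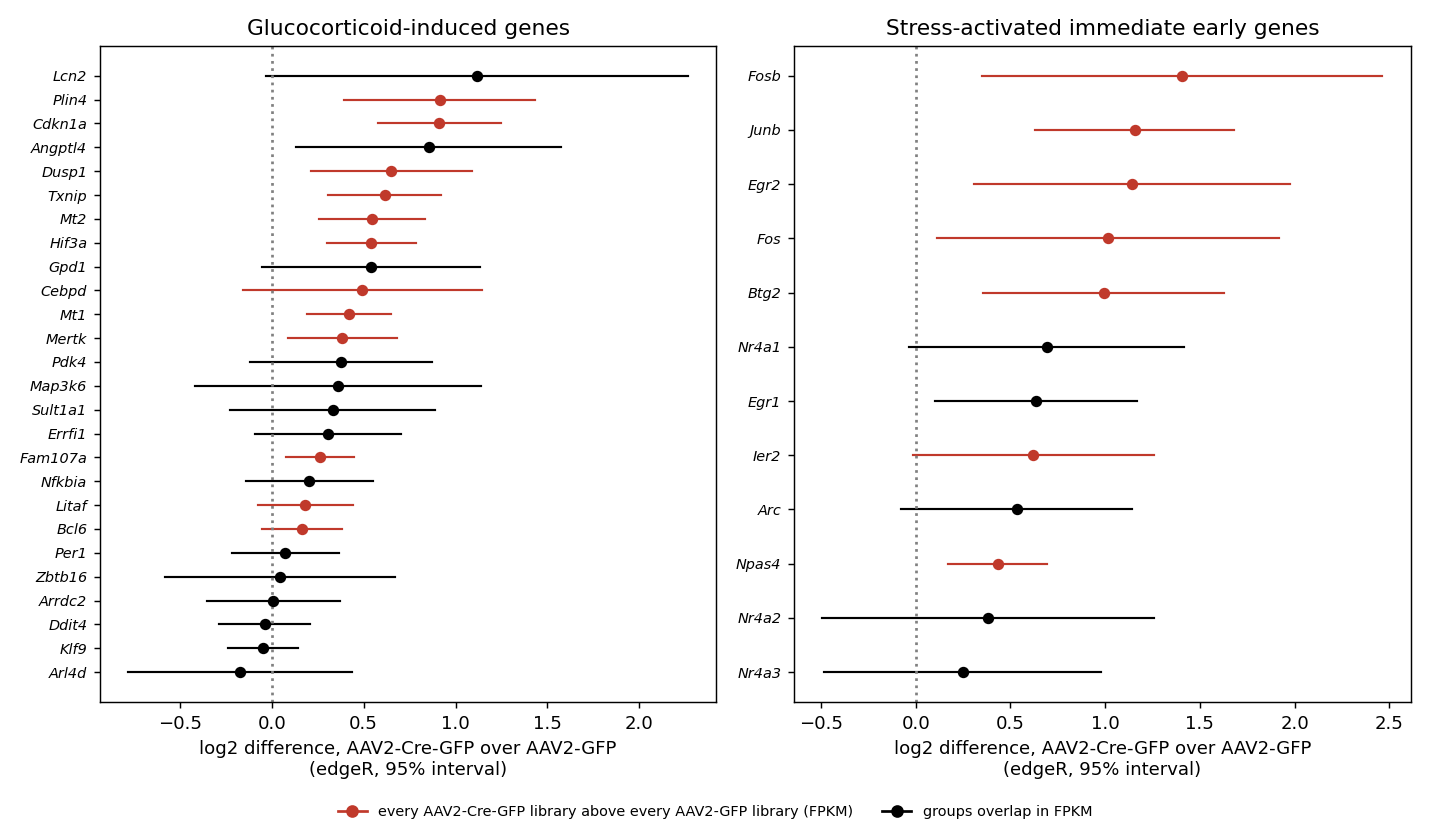
Log2 differences, AAV2-Cre-GFP over AAV2-GFP, of 26 glucocorticoid-induced genes (left) and 12 immediate early genes (right), with points for the edgeR estimate and lines for its 95% interval. Red marks genes whose 3 AAV2-Cre-GFP libraries were all above the 3 AAV2-GFP libraries in FPKM, 12 of 26 and 7 of 12.

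Genes that carry the CRH signal inside cells split by sign nearly as all genes did, but those with a small p were mostly lower. Of 21 tested genes for CRH-family ligands, G protein and adenylyl cyclases, protein kinase A, CREB-type factors and coactivators, arrestins and a receptor kinase, 12 were below 0, with a median of -0.057, against 51% and -0.0058 over all tested genes, and edgeR called 0. Before adjustment 1 was higher and 7 were lower with p under 0.05, against 8.11% and 9.11% of all tested genes. DESeq2 called 4 as lower, against 5.4% of the genes it judged. The groups did not overlap for 3 genes on the higher and 5 on the lower side, against 14.1% and 8.8% of all tested genes. Prkaca, the catalytic subunit of protein kinase A, stood at 67.5, 69.4 and 69.8 FPKM in Cre-labelled libraries 1 to 3, against 82.6, 85.8 and 87.1 FPKM in GFP-labelled libraries 1 to 3. Its log2 difference was -0.34 ± 0.052 (SE; edgeR adjusted p = 0.0705; DESeq2 adjusted p = 1.67e-07), and it was -0.38 with Cre-labelled library 1 alone. The neuronal adenylyl cyclases Adcy8 and Adcy5 differed by -0.31 ± 0.077 and -0.20 ± 0.056 (SE; edgeR adjusted p = 0.125 and 0.145). The pan-neuronal list, with a median of -0.18, moved in the same direction, and its part in these values was not tested.

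Genes for the proteins that hold or read the corticosteroid receptors had small differences, and edgeR called 0 of both lists. Of 12 receptor chaperones 4 were above and 8 below 0, with a median of -0.052. Before adjustment 2 were lower with p under 0.05, against 9.11% of all tested genes. DESeq2 called 2 as lower, against 5.4% of the genes it judged. The groups did not overlap for 1 on the higher and 2 on the lower side, against 14.1% and 8.8% of all tested genes. Stub1, a ubiquitin ligase of the chaperone system, Hsp90ab1, the constitutive HSP90 that keeps the receptors ready to bind hormone, and Bag1, a co-chaperone of HSP70, differed by -0.19, -0.13 and -0.19 (edgeR adjusted p = 0.159, 0.261 and 0.344). Of 12 coregulators 2 were above and 10 below 0, with a median of -0.085, and DESeq2 called 0. Before adjustment 1 was higher and 1 lower with p under 0.05, against 8.11% and 9.11% of all tested genes. The groups did not overlap for 2 on the higher and 1 on the lower side, against 14.1% and 8.8% of all tested genes. Ncoa2, the coactivator GRIP1 of the glucocorticoid receptor, was higher in each Cre-labelled library, at 5.42, 5.48 and 5.53 FPKM against 4.64, 4.95 and 4.76 FPKM (log2 difference 0.16 ± 0.053 SE; edgeR adjusted p = 0.193). Carm1, a coactivator methyltransferase, differed by -0.18 (edgeR adjusted p = 0.231).

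Among 10 tested genes of steroid supply and metabolism, 7 were above and 3 below 0, and edgeR called 0. Hsd11b2 was the 1 gene with p under 0.05 before adjustment, on the higher side, against 8.11% of all tested genes. It was also the 1 that DESeq2 called, against 3.66% of the genes it judged. Hsd11b2, the enzyme that inactivates corticosterone and is best known from the collecting duct of the kidney, stood at 0.329, 2.22 and 2.51 FPKM in Cre-labelled libraries 1 to 3, against 0.279, 0.263 and 0.108 FPKM in GFP-labelled libraries 1 to 3. The high values fell in the same 2 libraries as the kidney markers, and with Cre-labelled library 1 alone the log2 difference was 0.56, against 2.91 with all 6 libraries (edgeR adjusted p = 0.837 and 0.126). Without Cre-labelled library 1 it was 3.40, and the gene passed (edgeR adjusted p = 0.0186) in a fit that called 296 of 21805 genes. Akr1c18, which inactivates progesterone, was at 0, 2.42 and 2.12 FPKM in Cre-labelled libraries 1 to 3, against 0.280, 0.0488 and 0.224 FPKM in the GFP-labelled ones (edgeR adjusted p = 0.311). Cyp11a1, the side-chain cleavage enzyme that starts steroid synthesis, reached 0.754 FPKM in GFP-labelled library 1, the library with testis markers, against at most 0.104 FPKM in any other.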

How the data were processed

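Poly(A) RNA libraries were prepared with dUTP strand marking and adapters with molecular identifiers, per the labels' protocols. The submitters' processing notes name cutadapt, HISAT2, StringTie and build mm9; versions, settings and the use of strand or identifiers are not stated in the sources used here. Of 35024 gene identifiers shared with GENCODE M21, 32009 (91.4%) have identical coordinates, so positions are given as GRCm38. The deposited counts are whole numbers per gene with no normalization, and the FPKM values deposited by the authors scale them by gene length and library total.

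Differences come from edgeR 4.0.16 (R 4.3.3; quasi-likelihood test, TMM normalization, filterByExpr at a minimum count of 10, two-sided, Benjamini-Hochberg adjustment over 20865 genes, threshold 0.05) without covariates; standard errors come from the F statistic. Alternatives used DESeq2 1.42.0 and limma 3.58.1. The tests were tested on simulated data. Every pair of libraries differed by more than sampling noise (a chi-square of 11.4 or more per gene). Profiles are log2 CPM with a prior count of 2. The 10 genes, the gene lists and the alternatives were chosen with earlier results of these data known. Named from each pathway list were the 3 genes with the smallest p, besides the 5 profiles nearest to Crh; 1 coregulator that this rule names is not reported here. Ucn3, Oxt, Avp, Lamb3, Lcn2, Errfi1, Egr1, Klf9, Ddit4, Arl4d and Per1 were named after their values were seen.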

Additional observations from a re-analysis of the deposited data

How the results depend on the processing

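Call counts moved widely between fits, while the differences of Crh and Tsc22d3 kept their sign. Of 20865 genes 2 passed in the edgeR fit, against 1477 in DESeq2, 22 in the robust fit, 9 with median-ratio size factors, 1 with no filter, 3 with the replicate block, 15 in limma on log2(FPKM + 0.1) and 1 in limma without a filter. With 1 library left out the count ran from 1 to 296, with 296 when Cre-labelled library 1 was left out. It was 4 without Cre-labelled libraries 2 and 3, and 1059 without these and GFP-labelled library 1. Of the 10 genes 0 passed in edgeR, against 2 in DESeq2 (Crh and Tsc22d3), 1 in the robust fit (Tsc22d3), 0 to 1 with a library left out and 2 without Cre-labelled libraries 2 and 3 and GFP-labelled library 1 (Crh and Tsc22d3). In that last fit 1 Cre-labelled library, assumed to vary like the others, is set against the most alike pair of libraries, so its calls carry no weight. The replicate numbers did not pair the samples, with correlations of same-numbered deviations of -0.044, 0.012 and -0.022, and 0 of the 10 genes passed with the replicate block.

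Signs were kept in every alternative run for Crh (-1.004 to -0.71), Tsc22d3 (0.45 to 0.51), Nr3c1 (-0.21 to -0.0089), Nr3c2 (-0.15 to -0.012), Fkbp5 (0.025 to 0.19) and Hsd11b1 (0.074 to 0.39), of which the last 4 came close to 0. Other signs turned: with a library left out Crhr1 ran from -0.079 to 0.27, Crhr2 from -0.073 to 0.64, Crhbp from -0.26 to 0.25 and Ruvbl2 from -0.029 to 0.18. Crhbp was also 0.0059 with the replicate block, 0.033 in limma on log2(FPKM + 0.5) with or without a filter, 0.043 with a pseudocount of 0.1, 0.17 without Cre-labelled libraries 2 and 3 and 0.45 without these and GFP-labelled library 1, where Sgk1 was -0.0030. The cause was not tested. Crhr2, under a mean of 1 FPKM, has no filtered limma value. The list counts under each alternative were read after the data were seen. With 3 libraries a group, 1.5-fold is not excluded on the higher side for Crhr1, Crhr2, Crhbp and Hsd11b1, whose intervals include 0. For Crhbp it is not excluded on the lower side either.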

Other observations

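Within the Cre-labelled group the libraries were not alike for the stress-related lists. Cre-labelled library 3 was the highest of the 6 libraries for 17 of 26 glucocorticoid-induced genes and for 10 of 12 immediate early genes. GFP-labelled library 1 was the lowest for 11 and 8 of them. The same counts were not made over all tested genes, so they do not show a pattern particular to these lists. The mean centred log2 level of the glucocorticoid-induced list was 0.0061, 0.18 and 0.38 in Cre-labelled libraries 1 to 3, against -0.28, -0.18 and -0.11 in GFP-labelled libraries 1 to 3. For the immediate early genes it was -0.086, 0.41 and 0.79, against -0.57, -0.33 and -0.20. Each Cre-labelled library thus lay above each GFP-labelled one in both list means. Tsc22d3 likewise had its highest value in Cre-labelled library 3 and its lowest in GFP-labelled library 1, but with 19.9 and 19.96 FPKM in Cre-labelled libraries 1 and 3.

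Lcn2, a member of the glucocorticoid-induced list picked here after its values were seen, encodes the iron-trafficking protein lipocalin 2. It stood at 1.63, 5.01 and 7.83 FPKM in Cre-labelled libraries 1 to 3, against 2.87, 1.82 and 1.80 FPKM in GFP-labelled libraries 1 to 3. Its high values fell in the 2 libraries with kidney markers.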
